A study of Anguilla anguilla with 45 samples.

Results

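Fins of wild European eels from the Gironde differed from fins of eels from the Garonne in 165 of 387 transcript contigs. The comparison took the 5 caudal fin arrays titled Gironde against the 5 titled Garonne, 10 of the 45 arrays of the series. A contig, an assembled transcript sequence known in the files by a number alone, was a member where it held 3 or more values at each site, which 387 of 992 contigs did.

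The study asked whether cadmium and polychlorinated biphenyls leave a trace in eel transcripts that can be read without killing the animal, and it set wild eels beside laboratory eels. The other wild fins came from Certes. Laboratory fins came from controls, from polychlorinated biphenyl (PCB) doses of 50 and 300 ng/g, and from a cadmium (Cd) dose of 4 µg/L. Total RNA of each caudal fin carried the dye Cy3. On every array it met the same reference RNA in Cy5, pooled from 30 wild eels of Certes and given in the labels as liver. The value of a contig is therefore a log2 ratio, in which 0 means equality with the reference and each unit a doubling. For both sites the labels name the natural site and the tissue and nothing more: they state no age, sex, size, catch date or measured contaminant, and each array carries its own eel number.

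The Garonne is a river of south-western France and the Gironde is the estuary into which it runs, so the sites lie along one continuum from fresh to brackish water. The European eel, Anguilla anguilla, spawns at sea and spends its growth phase in rivers, estuaries and coastal waters, where it stores metals and fat-soluble pollutants. The caudal fin is made of bony rays, connective tissue, vessels and a covering epidermis, and a piece of it can be clipped from a live fish. In bulk tissue such as a fin clip, fewer cells of a type and less RNA per cell cannot be told apart.

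Signed values are read as fin over reference. The dyes make this reading likely, but the files do not state it, and every direction below would swap if it were the opposite. None of the contig names matched a gene in the table used here, so no gene is named, fin markers could not be checked, and contigs are given by number.

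The labelled tissue was checked against the other fins and livers instead. Garonne arrays correlated, across contigs, with the 5 laboratory control fins at a mean of 0.574 to 0.638 per array, and with the 5 control livers at -0.031 to -0.004. Gironde arrays A302, A305, A306 and A310 correlated with the control fins at only -0.119, -0.117, -0.049 and -0.108, and A315 at 0.252. With the control livers the 5 Gironde arrays stood at -0.036 to 0.133. The Gironde arrays thus resembled neither the control fins nor the control livers, apart from a weak likeness of A315 to the fins. Weak correlation between fin groups was not limited to the Gironde. Garonne arrays correlated with the 50 ng/g PCB fins at a mean of only 0.018 to 0.066 per array. With the 300 ng/g PCB fins they stood at 0.582 to 0.665, and with the Cd fins at 0.308 to 0.382. The counts of contigs, the contigs far below the reference and the comparison with Certes are also given without A315.

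Within the Garonne the 10 pairs of arrays correlated at 0.728 to 0.849, with a mean of 0.802. Within the Gironde the 10 pairs correlated at -0.059 to 0.433, with a mean of 0.205, and over the 98 contigs with a value on all 10 arrays they stood at 0.224 to 0.636. The 25 pairs of a Gironde with a Garonne array ran from -0.265 to 0.418, with a mean of -0.025. Eel A315 correlated with the Garonne arrays at 0.265 to 0.418, and the highest value of any other Gironde array with a Garonne array was 0.022. Garonne fins also resembled Certes fins, at a mean of 0.656 over 25 pairs, whereas the mean of Gironde with Certes fins was -0.068. These are descriptions over contigs measured on both arrays, which share the reference and are not independent replicates. No pair among the 10 arrays lay below -0.3. Gironde A306 and Certes A207 gave -0.305, and Garonne A353, A359, A360 and A362 gave -0.387, -0.455, -0.349 and -0.365 with fish Aa26 of the 50 ng/g PCB group. Garonne A365 gave -0.353 with the liver of Cd fish 47. The labels state the dyes of every array but not how each ratio was formed. The deposited signs were kept, and whether any array carries the opposite sign was not tested.

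The sites also differed in how many contigs were measured at all. Gironde arrays held a value for 840 contigs in A302, 879 in A305, 717 in A306, 829 in A310 and 761 in A315. Garonne arrays held 404 in A353, 596 in A359, 580 in A360, 517 in A362 and 389 in A365. Every Gironde array held more than every Garonne array, with means of 805 ± 65.1 against 497 ± 96.7 (SD, n = 5 each). The exact two-sided permutation test over all assignments of 5 against 5 arrays gave p = 0.00794, the smallest it allows, and 0.0159 adjusted over the 2 tests of this kind.

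This gap lay among the contigs that were not measured on every Certes array. Over the 560 contigs that all 5 Certes arrays measured, a Gironde array held 407.8 ± 53.8 and a Garonne array 418.4 ± 52.8 (SD, n = 5 each), and the exact permutation p of that difference was 0.786. Over the other 432 contigs a Gironde array held a mean of 397.4 and a Garonne array 78.8. Of all 992 contigs, 173 had a value on all 5 Gironde arrays and on no Garonne array, and 6 showed the opposite pattern. The ratios of those 173 contigs in Gironde fins lay close to the reference, with a median contig mean of -0.057. Why spots lack a value is not given in the sources used here. A contig without Garonne values could not enter the comparison, so the 387 members are not a random part of the array.

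**Figure D1:**
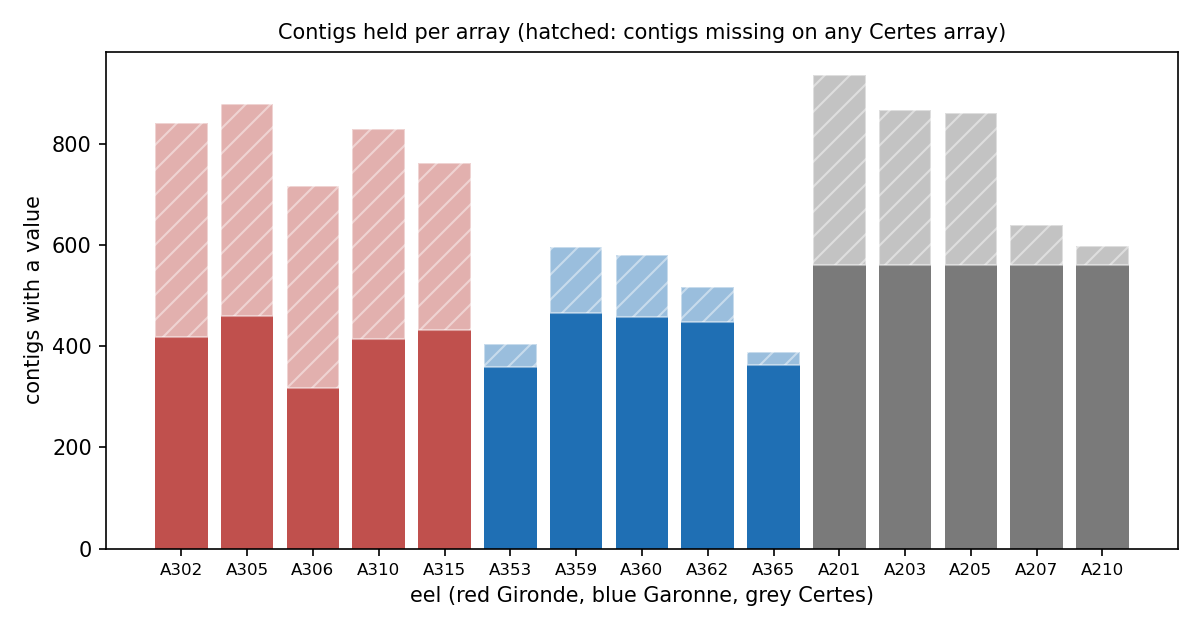
Number of contigs with a value on each of the 15 wild fin arrays (bars, one eel each, coloured by site). The solid part counts the 560 contigs measured on all 5 Certes arrays and the hatched part the other 432. The gap between Gironde arrays, at 717 to 879 in all, and Garonne arrays, at 389 to 596, lies in the hatched part.

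Of the 387 contigs, 165 differed between the sites at an adjusted p of 0.05 in limma with Benjamini-Hochberg adjustment, which is 42.6% of those tested. Gironde fins were higher in 105 contigs (27.1%) and lower in 60 (15.5%). The higher contigs differed by log2 1.42 to 7.17, with a median of 3.51, and the lower ones by -1.72 to -6.19, with a median of -2.65. The values of the sites did not overlap in 118 contigs (30.5% of 387), 75 of them among the higher and 30 among the lower calls. Fewer values overlap less readily, and among the 98 contigs with all 10 values the count was 25 (25.5%). In 222 contigs the test was not passed, and the 95% interval of such a difference had a median width of 2.98 log2 units. The 172 contigs whose smaller count of values was exactly 3 stood just inside the minimum, with a median absolute difference of 1.52, and the 139 contigs just outside, with exactly 2, had 2.30.

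The balance of directions rested on how the arrays were centred. The authors' centring set the median of each array to 0 over whichever contigs it measured. Over the 98 contigs measured on all 10 arrays, the medians were -0.97 to -0.27 on Garonne arrays, and 0.65 in A302, -0.91 in A305, 1.99 in A306, 0.17 in A310 and 0.51 in A315. When all 35 fin arrays were recentred on the 65 contigs they have in common, the median of the 387 differences went from -0.10 to -1.18 and the calls from 105 higher and 60 lower to 69 higher and 149 lower. Under quantile normalization 84 calls were higher and 76 lower, and the median of the differences was -0.35. None of the 165 calls turned to a call in the opposite direction on recentring: 69 higher and all 60 lower calls held, 36 higher ones were lost and 89 contigs became lower calls. Under the deposited scale, recentring, scaling to one spread and quantile normalization alike, 60 contigs (15.5% of 387) were higher in Gironde fins and 55 (14.2%) lower. These 60 contigs had medians of 1.20 in Gironde and -2.55 in Garonne fins, and the 55 had -1.02 and 1.54.

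**Figure D2:**
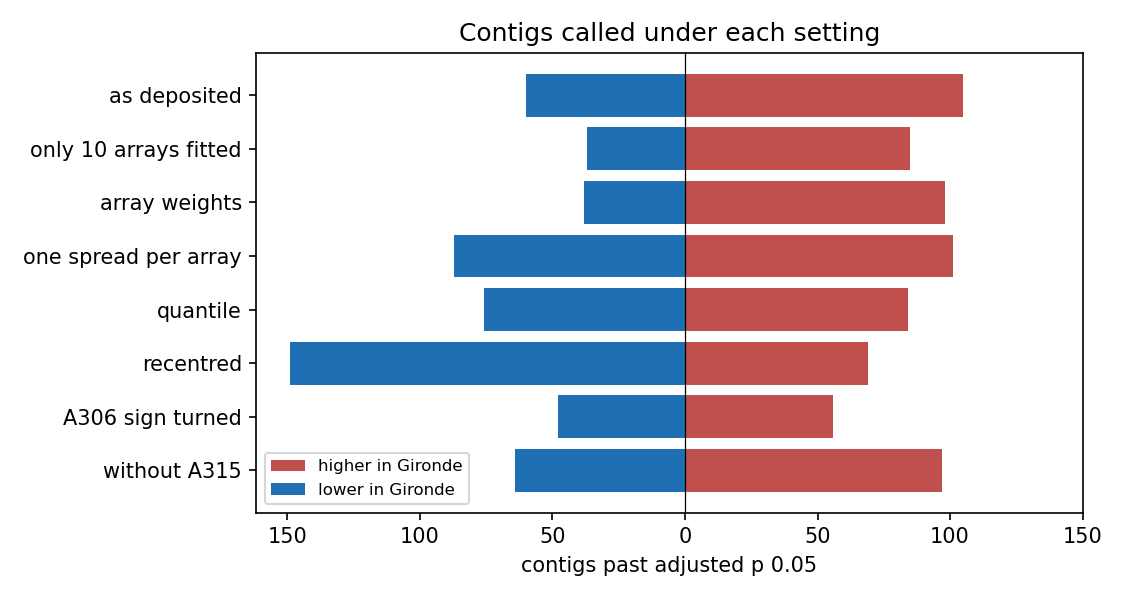
Number of contigs higher (right, red) and lower (left, blue) in Gironde than in Garonne fins past limma's adjusted p of 0.05, under the deposited values and 7 other settings. The split moves from 105 higher and 60 lower as deposited to 69 and 149 when arrays are recentred.

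The way each site departed from the reference was then compared, since the difference between them can come from either. Each site's mean was tested against 0 in the same limma fit, which leaves out the spread of the reference itself. Every fin carried Cy3 and the reference Cy5, so dye and RNA source cannot be told apart in this test. In it 154 of 387 contigs (39.8%) differed from the reference in Garonne fins, 68 higher (17.6%) and 86 lower (22.2%). In Gironde fins 72 (18.6%) did, 48 higher (12.4%) and 24 lower (6.2%). The order of these counts and their split by direction depended on the scale: with arrays scaled to one spread they were 62 in Garonne and 146 in Gironde fins, and with quantile normalization 70 and 118. Lower contigs then outnumbered higher ones in Gironde fins, at 79 against 67 when scaled and 64 against 54 by quantile, and also on recentring, at 58 against 46. In Garonne fins recentring turned the split to 147 higher and 52 lower, while scaling left 22 and 40 and quantile normalization 29 and 41. Without A315 the counts were 134 in Garonne fins, 50 higher and 84 lower, and 72 in Gironde fins, 41 higher and 31 lower, of 297 tested. In 10 contigs Garonne fins were below and Gironde fins above the reference, and in 1 contig the reverse. In 11 contigs both sites departed the same way, 5 above and 6 below. Of the 86 contigs below the reference in Garonne fins, 65 were higher in Gironde, and of the 68 above it, 38 were lower in Gironde. Over all 387 contigs 27.1% were higher and 15.5% lower. The Garonne mean enters both calls, so such counts are pushed up in advance and test nothing. The Garonne count fell to 90 without A360 and to 94 without A362, with fewer contigs tested, and rose to 253 with array weights, while the Gironde count was 45 when the 10 arrays were fitted alone.

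On the deposited scale the members fell into a few plain shapes. Calling a mean within 1 log2 unit of the reference near to it, 128 contigs were near at both sites, and 4 of them passed the test of the difference. In 59 contigs Garonne fins were below and Gironde fins near, and 49 of these were higher in Gironde with a median difference of 4.72 among the calls. In 72 contigs Garonne fins were above and Gironde fins near, and 28 were lower in Gironde. In 43 contigs Garonne fins were near and Gironde fins above, with 38 higher calls at a median of 2.33. In 21 contigs Garonne fins were above and Gironde fins below the reference, and all 21 were lower calls. These shapes are set by the same means as the calls and describe them without a further test.

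**Figure D3:**
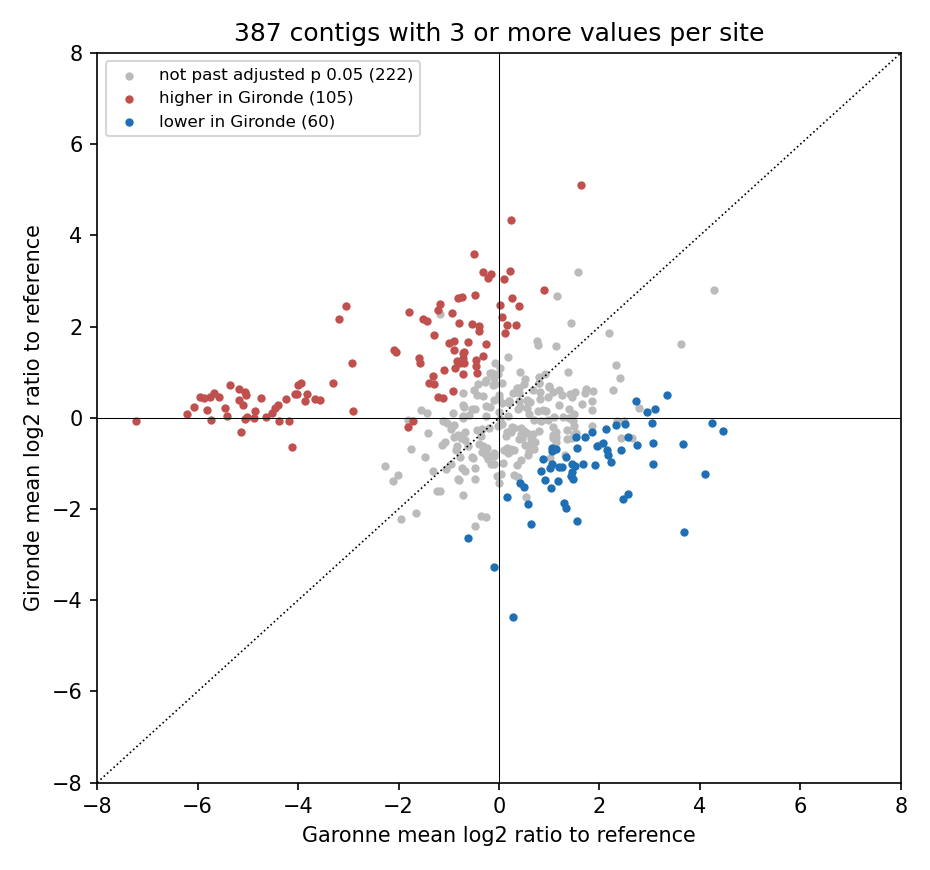
Mean log2 ratio of each of the 387 contigs in Gironde fins (y axis) against Garonne fins (x axis), with the 105 higher calls in red, the 60 lower calls in blue, the others in grey, and a dotted line of equality. The 34 contigs below -4 in Garonne fins lie between -0.64 and 0.72 in Gironde fins.

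The contigs farthest below the reference in Garonne fins were taken at a mean below -4, a line that falls in no gap: the highest mean inside it was -4.01. Just outside, 11 contigs had Garonne means from -4 to -2.90 and Gironde means of 0.15 to 2.45, of which 8 were within 1 log2 unit of the reference. In 34 contigs (8.79% of 387) the Garonne mean was below -4, and all 34 were higher in Gironde fins, by 3.49 to 7.17, with a largest limma adjusted p of 0.00895. Garonne arrays had medians over these contigs of -7.52 in A353, -3.29 in A359, -4.34 in A360, -5.49 in A362 and -6.41 in A365, and no Garonne value lay within 1 log2 unit of the reference. Gironde arrays had medians of 0.33 in A302, 0.19 in A305, 0.35 in A306, 0.22 in A310 and 0.13 in A315. Gironde contig means ran from -0.64 to 0.72, or from -0.68 to 0.85 without A315, and the values of the sites did not overlap in 33 of the 34 contigs. Within 1 log2 unit of the reference were 26 of 33 measured contigs in A302, 34 of 34 in A305, 33 of 34 in A306, 32 of 33 in A310 and 33 of 34 in A315. The SD between eels had a median of 0.31 in Gironde fins and 1.87 in Garonne fins, and the Garonne SD was larger in all 34 contigs. The contigs were picked for their low Garonne means, so these values describe them and test nothing. They hold on the deposited scale. Over the 98 contigs with all 10 values the array medians, -0.91 in A305 and 1.99 in A306, lay farther apart than the Gironde medians here. Whether the narrow Gironde band near 0 holds on another centring was not tested.

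On the deposited scale the same 34 contigs varied more between arrays in the other fin groups than in Gironde fins. Of these contigs, 7 had 3 or more Certes values, with a median contig mean of -2.44, and 9 had none. Certes array medians over these few contigs were -5.28 to -0.76. The 30 with 3 or more control fin values had a median contig mean of -1.66. The 5 control fin arrays had medians of -3.55 to -0.20 with values reaching from -5.99 to 3.66, and their share of contigs within 1 log2 unit of the reference was 0% to 59.4%. In the 50 ng/g PCB fins the array medians were -0.35 to 1.73 and that share 5.88% to 93.8%, with Aa28 and Aa25, at 93.8% and 87.9%, above Gironde A302, at 78.8%, and below the other Gironde arrays. The 300 ng/g PCB fins had medians of -3.50 to 0.43 and the Cd fins -1.76 to 2.21. Eel A315, the Gironde array with the highest correlations with Garonne fins, lay with the other Gironde eels on these contigs.

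The contigs with the largest positive differences among those with all 10 values came from this group. contig_859 had log2 ratios of 1.31 in A302, 0.17 in A305, 0.42 in A306, 0.13 in A310 and 0.14 in A315 of the Gironde. In Garonne fins it had -5.79 in A353, -3.09 in A359, -3.85 in A360, -10.17 in A362 and -6.43 in A365. On the deposited scale every Gironde eel was above the reference and every Garonne eel far below it, without overlap. The Gironde mean did not differ from the reference (limma adjusted p = 0.766). The side of 0 of a Gironde eel rests on the centring of its array and was not tested on another scale. The means were 0.44 ± 0.50 and -5.87 ± 2.76 (SD, n = 5 each). The sites differed by 6.30 ± 1.06 (SE, limma adjusted p = 7.86e-05). The limma adjusted p was 0.00174 in the fit of the 10 arrays alone and 0.00311 with array weights. The only Certes array with a value read -4.94, and the 4 control fins with a value averaged -1.07 ± 1.20.

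contig_20435 divided the sites in the same way. Gironde fins had 0.77 in A302, 0.57 in A305, 0.56 in A306, 0.53 in A310 and 0.22 in A315. Garonne fins had -6.51 in A353, -3.38 in A359, -5.23 in A360, -5.10 in A362 and -8.20 in A365. As deposited, the Gironde eels lay within a narrow band and the Garonne eels spread over several units, again without overlap. The Gironde mean did not differ from the reference (limma adjusted p = 0.640). The difference was 6.22 ± 0.89 (SE, limma adjusted p = 1.19e-05). In the fit of the 10 arrays alone the limma adjusted p was 0.000403, and with array weights 0.00073. No Certes array held a value for this contig, and the control fins ran from -4.23 to 1.28.

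On the deposited scale, lower contigs with all 10 values were few and their differences smaller. Of the 50 calls with all 10 values, 4 were lower in Gironde and 46 higher. The median difference of all 98 contigs with 10 values was 1.12 on that scale. Called under the deposited scale, recentring, scaling to one spread and quantile normalization alike were 22 higher and 3 lower of these contigs. contig_18942 had -2.81 in A302, -1.55 in A305, 0.10 in A306, -0.96 in A310 and -0.25 in A315 of the Gironde. Garonne fins had 2.71 in A353, -0.24 in A359, 0.56 in A360, 1.16 in A362 and 0.87 in A365. Gironde A306 and A315 and Garonne A359 lay close together near 0, so the sites overlapped. The difference was -2.11 ± 0.59 (SE, limma adjusted p = 0.00414), and the Certes fins lay between the sites at -0.48 ± 0.38 (SD, n = 5). The limma adjusted p of the difference was 0.0333 in the fit of the 10 arrays alone and 0.0169 with array weights.

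contig_31851 was the weakest of the named calls. Gironde fins had -1.27 in A302, -1.29 in A305, -4.48 in A306, 0.66 in A310 and -0.43 in A315. Garonne fins had 1.44 in A353, 0.55 in A359, -0.04 in A360, 0.11 in A362 and 2.55 in A365. A306 was far below the other Gironde eels and A310 lay inside the Garonne range. The difference was -2.28 ± 0.91 (SE, limma adjusted p = 0.0419). The call ended without A306, at -1.50, and without A302, A305, A353, A359 or A365, at -2.31, -2.30, -2.15, -2.38 and -1.88. It also ended with array weights, at -0.99, in the fit of the 10 arrays alone, and with the sign of A306 turned, at -0.49. All 4 contigs named so far were called in the same direction on the deposited scale, recentred, scaled to one spread and quantile-normalized.

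As deposited, few contigs kept one side of the reference on every eel of both sites. Of the 98 contigs with 10 values, 1 was above on all 10 arrays and 3 were below. The contig above was contig_11607, with 2.03, 0.13, 4.38, 1.39 and 0.50 in Gironde eels A302, A305, A306, A310 and A315. Garonne eels A353, A359, A360, A362 and A365 had 0.82, 0.97, 0.58, 1.09 and 0.35. The Garonne values fell inside the Gironde range, and the difference of 0.93 had a 95% interval of -0.33 to 2.19 (limma adjusted p = 0.230). Certes fins averaged -0.08 ± 0.36 (SD, n = 5) for this contig. With arrays scaled to one spread its difference was 1.96 and passed the test (limma adjusted p = 0.0213). Recentring turned the difference to -0.27, which did not pass, and it was 0.25 without A306 and -0.82 with the sign of A306 turned.

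Of the 3 contigs below the reference throughout, contig_24629 was the one whose value closest to 0 lay farthest below it. Gironde eels A302, A305, A306, A310 and A315 had -1.42, -2.77, -0.90, -1.17 and -1.81, and Garonne eels A353, A359, A360, A362 and A365 had -1.52, -0.49, -1.60, -1.47 and -1.10. The ranges overlapped over most of their length, and the difference was -0.38, with a 95% interval of -1.34 to 0.58 (limma adjusted p = 0.537). Recentring moved it to -1.58 (limma adjusted p = 0.00584) and scaling to one spread to -1.57 (0.0228). On those 2 scales it was therefore a lower call, and on the deposited and quantile scales it was not. Certes fins averaged -0.98 ± 0.63 (SD, n = 5).

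**Figure D4:**
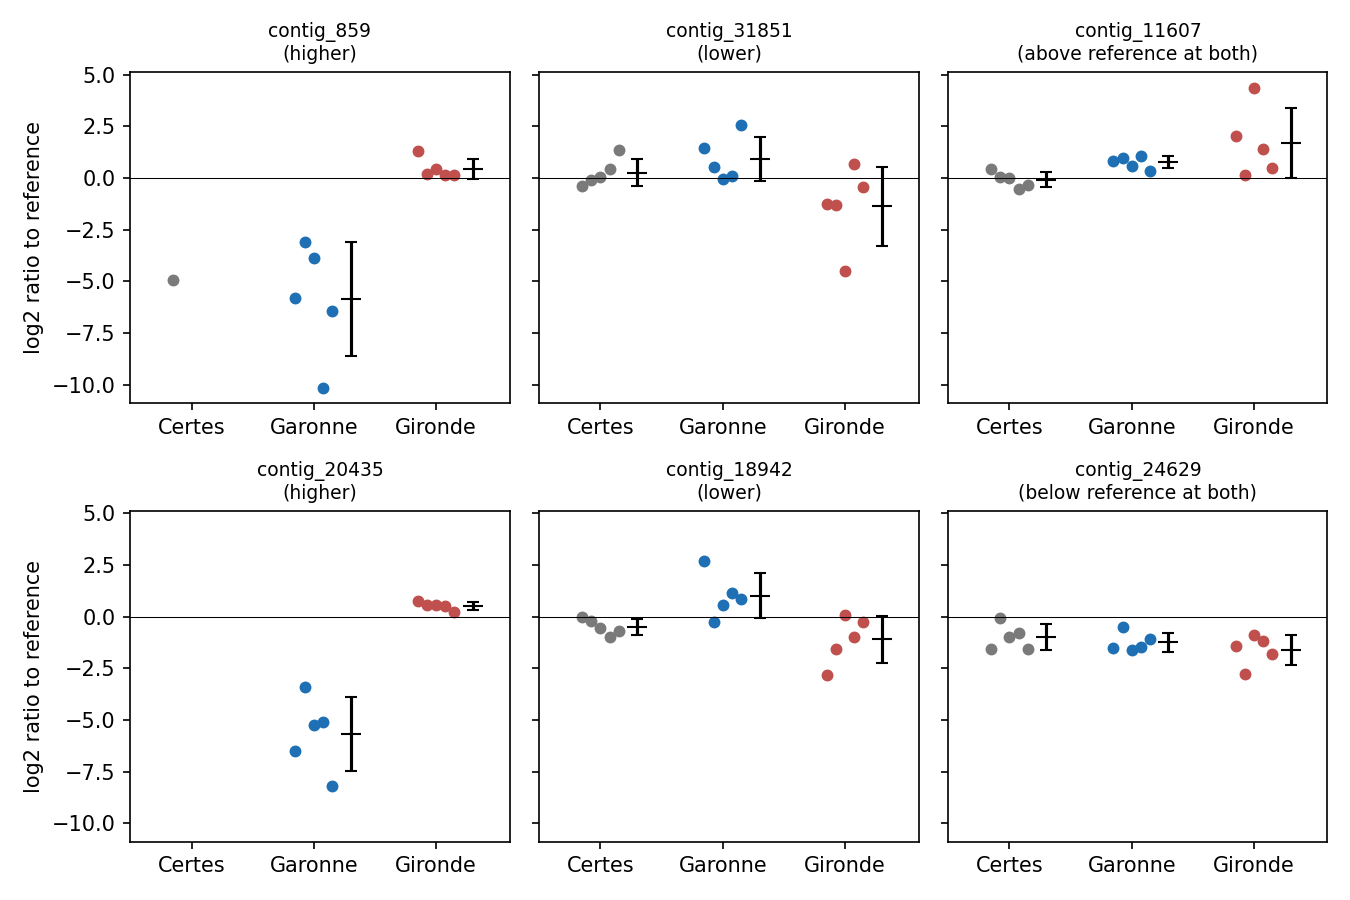
Log2 ratio to the reference (y axis) of the 6 named contigs in Certes, Garonne and Gironde fins, one point per eel with a value and, beside them, the mean with its SD where there is more than 1. In the left column, as deposited, contig_859 and contig_20435 have every Gironde eel above 0 and every Garonne eel below -3.

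The called contigs were then followed eel by eel. Over the 105 higher contigs, Gironde medians were 0.86 in A302, 0.22 in A305, 1.88 in A306, 0.70 in A310 and 0.57 in A315, and Garonne medians ran from -1.51 to -0.84. A305 was the least separated, with 23 of its 103 values inside or below the Garonne range, against 0 of 98 in A306, 1 of 100 in A310, 4 of 84 in A302 and 6 of 102 in A315. Over the 60 lower contigs, Gironde medians were -1.01 in A302, -0.90 in A305, -2.09 in A306, -1.20 in A310 and 0.75 in A315, and Garonne medians ran from 1.13 to 1.82. Here A315 lay between the other Gironde eels and the Garonne eels, with 19 of its 41 values inside or above the Garonne range. In the others it was 5 of 57 in A302, 2 of 55 in A305, 5 of 27 in A306 and 1 of 50 in A310. These contigs were called from means that include each eel's own values, so the counts describe the eels and test nothing. In this description A315 sided with the other Gironde eels on the higher contigs and only in part on the lower ones. Without A315 there were 97 higher and 64 lower contigs of 297 tested (54.2%), and 138 of the 143 original calls that could still be tested held.

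**Figure D5:**
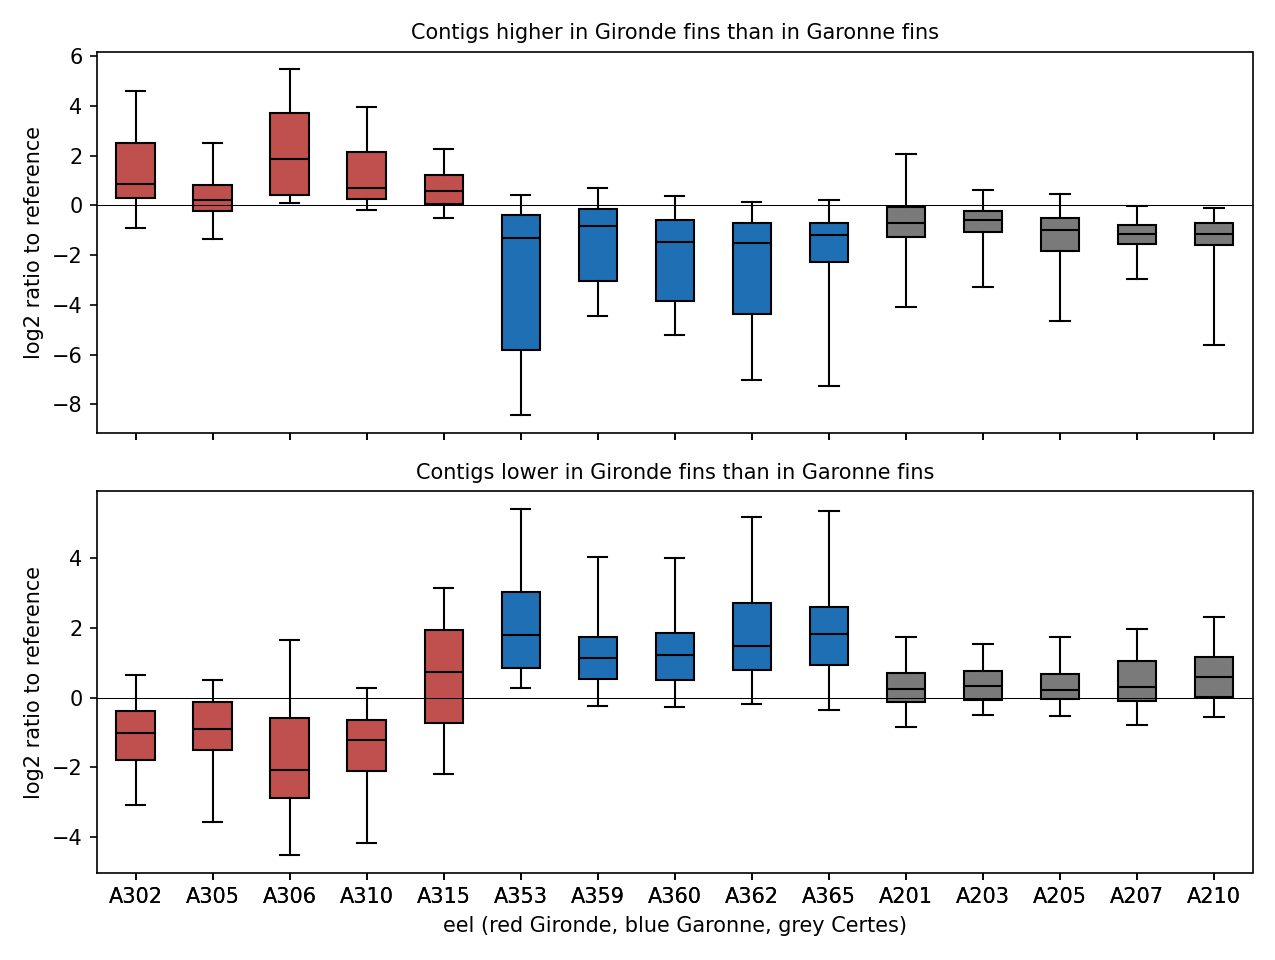
Distribution of log2 ratios on each wild fin array over the contigs higher (top) and lower (bottom) in Gironde than in Garonne fins: boxes span the quartiles with the median as a line, and whiskers the 5th to 95th percentile. In the bottom panel A315, with a median of 0.75, lies above the other 4 Gironde arrays, at -2.09 to -0.90.

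The Certes fins were set beside both sites as a description. Their means do not enter the difference between the sites, but their arrays share the estimate of spread that decides the calls. Of the 105 higher contigs, only 75 had 3 or more Certes values. Among these 75 the Certes mean was nearer to Garonne than to Gironde in 71 (94.7%). Their medians were -0.84 in Certes, -0.90 in Garonne and 1.48 in Gironde fins. Of the 34 higher contigs far below the reference in Garonne fins, only 7 had 3 or more Certes values. With A315 left out of the Gironde mean, the Certes mean was nearer to Garonne in 3 of these 7. Of the 60 lower contigs, it was nearer to Garonne in 34 (56.7%), or in 38 with A315 left out of the Gironde mean, and lay between the sites in 53, with medians of 0.35 in Certes, 1.56 in Garonne and -1.01 in Gironde fins. Over all 357 contigs with 3 or more values at the 3 sites, the Certes mean was nearer to Garonne in 61.6%.

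The spread of ratios within an array was the second value tested over arrays. Over the 98 contigs with 10 values, the SD was 1.64 ± 0.48 in Gironde and 1.68 ± 0.53 in Garonne arrays (SD, n = 5 each, exact two-sided permutation p = 0.937, also when adjusted). The measure mattered: the interquartile range of the same contigs was 2.29 ± 0.87 in Gironde and 1.14 ± 0.19 in Garonne arrays, and every Gironde array exceeded every Garonne array (exact permutation p = 0.00794). Each array measured its own set of contigs, larger on every Gironde array. Over all values of an array, and so over unlike contigs, the SD was instead smaller in Gironde, 1.47 ± 0.29 against 2.54 ± 0.16 (exact permutation p = 0.00794). The middle of the shared contigs was thus wider in Gironde fins at a similar SD, so their tails were longer relative to the middle in Garonne fins.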

How the data were processed

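The measurements were the authors' deposited log2 ratios of 992 contigs on 45 2-colour arrays, in the value table of the series. Each array has a median of 0, so the authors centred it. The log base was taken from the range of the values, and background correction, spot filters, averaging of spots and the reason for missing values are recorded in none of the labels or headers. Missing values (18.8% on Gironde and 49.9% on Garonne arrays) were left missing. A scanner table with 180 columns was not used, because its columns name slides and not samples.

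A limma 3.58.1 fit under R 4.3.3 (lmFit, then eBayes) took all 35 fin arrays with a mean for each of the 7 groups. It was tested on simulated data first, which gave every group the same SD per contig, unlike the measured values. There it recovered 10.4% of differences of 1 log2 unit, 59.7% of those of 2 and 80.3% of those of 3. Of its simulated calls 1.96% were false. P-values are two-sided and were adjusted by Benjamini and Hochberg's method over the 387 contigs with 3 or more values at each site and a threshold of 0.05. Values per array were compared by exact permutation over all assignments of 5 against 5 arrays. Without gene names at most 2 higher and 2 lower contigs were named, those with the largest called differences among contigs with all 10 values, and 1 above and 1 below the reference on all 10 arrays. The members, rules and alternatives were chosen with earlier results of these data known. Depth has no meaning for arrays, whose number limits the precision.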

Additional observations from a re-analysis of the deposited data

Results flagged for a closer look

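Among 16 sets of 5 values checked, covering the values held, the spread and the 6 named contigs at each site, 1 eel stood apart from its group. For contig_859, Gironde A302 had a log2 ratio of 1.31, and its gap to the next Gironde eel was 0.757 of the range of the 5 eels. Chance marks about 1 in 20 such groups.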

How the results depend on the processing

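The count of 165 contigs that differed stayed within 1.5 times with a minimum of 2 values, array weights, a robust prior, the fit of the 10 arrays alone, recentring, scaling and quantile normalization. Of the 165 calls themselves, 119 held in the fit of the 10 arrays alone, 126 with array weights and 129 on recentring. Array weights ran from 0.0758 in A306 to 0.844 in A310 for Gironde arrays. For Garonne arrays they ran from 0.711 in A359 to 2.75 in A360. Quantile normalization kept 137 and scaling 152, and a minimum of 2 values or a robust prior kept all 165. Leaving out each array in turn gave 124 to 161. A minimum of 4 values at each site left 105 and a minimum of 5 left 51, both from fewer contigs tested, and the count was 104 with the sign of Gironde A306 turned. For contigs that differed from the reference, the Garonne count was 253 with array weights and 90 to 155 with each array left out, and the Gironde count was 45 in the fit of the 10 arrays alone. With scaling to one spread and quantile normalization, both tried after seeing the data, the Garonne count was 62 and 70 and the Gironde count 146 and 118, which turned their order. The difference in contigs held per array turned from 308 to -10.6 over contigs complete in Certes. The difference in spread, -0.03 as tested, was 1.14 as an interquartile range, -1.07 over all values, and -0.195 to 0.090 with each array left out. No paired analysis was possible because Gironde and Garonne eels share no number.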

Other observations

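On the deposited scale the direction of a difference went with the number of values a contig held. Of the 158 contigs with all 5 Gironde values, 77 were higher and 12 lower in Gironde fins, with a median difference of 1.15. Of the 229 contigs with 3 or 4 Gironde values, 28 were higher and 48 lower, with a median of -0.71. On the Garonne side, the 249 contigs with all 5 values had 72 higher and 26 lower calls, and the 138 with 3 or 4 values had 33 and 34. The part of missing values in these differences was not tested.

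Variation between eels of a site was larger in Gironde fins in most members. Over the 387 contigs the median SD was 1.41 in Gironde and 0.684 in Garonne fins, and it was larger in Gironde for 271 (70.0%). Over the 98 contigs with 10 values, the median SD between eels was 1.44 in Gironde and 0.466 in Garonne fins, and it was larger in Gironde for 81 contigs. Whole-array offsets enter this SD: the array medians over these contigs ran from -0.91 to 1.99 in Gironde and from -0.97 to -0.27 in Garonne. Their part in the SD was not tested. In the 34 contigs far below the reference in Garonne fins, the Garonne SD was larger in all 34. Those contigs were picked for their low Garonne means, so this describes them and tests nothing.

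The 173 contigs measured on every Gironde array and on no Garonne array held a mean of 2.86 values of 5 in Certes fins, 3.26 in control fins and 2.52 in the 300 ng/g PCB fins. They held 3.95 in the 50 ng/g PCB fins and 4.17 in the Cd fins. All 992 contigs held a mean of 3.93 in Certes fins, 4.27 in control fins, 3.73 in the 300 ng/g PCB fins, 4.17 in the 50 ng/g PCB fins and 4.49 in the Cd fins.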
